A study of Drosophila melanogaster with 6 samples.

Results

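Small RNAs that came from glycine tRNA with the anticodon GCC (GlyGCC) were followed in somatic tissue of adult male Drosophila melanogaster. The members were all rows of the 6 deposited lists whose tRNA gene name ends in GlyGCC, and a sequence listed at several genes was counted once per library. They came to 315 of 3423 distinct sequences, or 241 of 3194 after each read was counted once, and to 101853 of 201780 tRNA-derived reads. All 6 groups were in a w1118 background. Dnmt2 mutants carried the mutation on both chromosomes, and the flies they were set against were heterozygous for it, according to the sample labels. The title of the series calls the comparison flies wild-type instead. The labels were followed, and by them every group carried at least 1 mutant copy, but the files hold nothing that could settle the genotype. In each genotype, control flies were untreated and 10 days old. Heat shock flies were 10 days old and had 1 h at 37 °C followed by 5 h at room temperature. Recovery flies had the same heat treatment and 2 days to recover, and were 12 days old, so recovery and age cannot be told apart. Bodies without testes were used, and RNA of 25 to 70 nt was sequenced.

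A tRNA folds into a cloverleaf, with the anticodon in the middle of a loop of single-stranded bases. Enzymes that cut in this loop under stress leave a 5′ and a 3′ tRNA fragment of roughly equal size. Dnmt2 is a methyltransferase that modifies the cytosine at position 38 of the anticodon loop of a few tRNAs, and tRNA Gly-GCC, Asp-GTC and Val-AAC are its known substrates in flies. In flies, loss of this methyl group is known to make its substrate tRNAs easier to cut. The series asks how these small RNAs differ without Dnmt2 and after heat.

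Each group had 1 library, and nothing in the labels tells of separate cultures or fly batches. A test therefore used the 3 conditions as pairs for genotype and both genotypes as pairs for condition, and its p measures only the spread between these libraries. In mutants the number of tRNA-derived reads was 68240 in controls, 37750 after heat shock and 5154 in recovery. In heterozygotes it was 15457, 46303 and 28876 in the same order of conditions. These totals cover tRNA-derived sequences of 30 to 51 nt and are not sequencing depths. The lists hold no mRNA, so neither Dnmt2 itself nor any marker of the tissue could be checked. In such bulk samples, fewer cells that hold a fragment and less of it per cell cannot be told apart.

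The reads were listed at 14 genes, 8 on chromosome arm 2L and 6 on 2R. All 14 matched a RefSeq gene by name, and RefSeq gives each a length of 71 nt. Of these genes, 13 belong to the group named Gly-GCC-1 and 1 is named Gly-GCC-2-1. That last copy was told apart by the substitution C50T, with the Gly-GCC-1 base first and positions in tRNA numbering, which places the anticodon at 34 to 36. The changed base was seen in 6 of 9617 reads covering position 50, 4 of them in the mutant libraries and 2 in the heterozygous ones. Substitutions that mark no gene copy were about as frequent, such as T54G with 9 reads and A21C with 5, so these reads cannot be told from read errors. Reads could not be assigned to any single one of the other 13 genes.

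GlyGCC was the most abundant source of tRNA-derived reads in all 6 libraries. It gave 57.7%, 56.1% and 52.9% of the reads in mutant control, heat shock and recovery flies. In heterozygous flies it gave 53.4%, 45.3% and 32.3%. The share was higher in the mutant library in each of the 3 conditions, and the heterozygous recovery library was the lowest of the 6. Across the fit over all isoacceptors (tRNAs with the same amino acid and anticodon), 13.0% of the 23 tested passed the genotype test. GlyGCC did not, at a log2 fold change of 0.60 ± 0.40 (SE) in mutants against heterozygotes and an adjusted p of 0.289 (edgeR's quasi-likelihood test, Benjamini-Hochberg). The reads per library differ in scale, so this fold change is on trimmed-mean-scaled counts (TMM), which set the libraries level over the isoacceptors. Leaving out the mutant control, mutant recovery or heterozygous recovery library brought the edgeR adjusted p to 0.0486, 0.0484 and 0.0283, at log2 fold changes of 0.61, 0.53 and 0.49. Without the mutant heat shock, heterozygous heat shock or heterozygous control library the edgeR adjusted p was 0.766, 0.780 and 0.283, at 0.92, 0.87 and 0.68. Over all 6 such fits the log2 fold change lay between 0.49 and 0.92.

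The direction of the total GlyGCC level with heat shock depended on the measure. Its share of reads was lower after heat shock in both genotypes, and the intervals did not overlap in either. The share was 56.1% after heat shock against 57.7% in control mutants, and 45.3% against 53.4% in heterozygotes. On TMM-scaled counts the log2 ratio of heat shock to control was 0.11 in mutants and -0.19 in heterozygotes. Of the 23 isoacceptors, 26.1% passed the heat shock test, and GlyGCC was not among them, with a log2 fold change of -0.05 ± 0.48 (SE) and an adjusted p of 0.941 by edgeR. The median isoacceptor stood at -0.45 in the same comparison, and the sign of the GlyGCC value turned under other scalings, with 0.35 under relative log expression (RLE) factors. Given its SE, the fit does not show that the level was the same. In recovery against control flies, 0.00% of the isoacceptors passed, and none had an unadjusted p under 0.05. GlyGCC had a log2 fold change of -0.80 ± 0.49 (SE) there and an adjusted p of 0.620 by edgeR. Without the mutant recovery library, which has the fewest reads, the value was -1.06. That fit holds only the heterozygous library for recovery, so its p is not given. Leaving out each library in turn gave values of -1.06 to -0.50.

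Other tRNAs differed in their levels. The Dnmt2 substrate AspGTC gave 0.93%, 2.97% and 2.66% of reads in mutant control, heat shock and recovery flies, and 3.14%, 5.63% and 4.03% in heterozygous ones. AspGTC thus stood lower in mutants in each condition, where GlyGCC stood higher; its genotype difference did not pass the test either, at -0.87 ± 0.39 (SE) and an edgeR adjusted p of 0.0956. The third substrate, ValAAC, was seen in 20 reads over all libraries. Of the other glycine tRNAs, GlyTCC had 1604 reads and passed the genotype test at 1.69 ± 0.36 (SE, edgeR adjusted p = 0.000259), and GlyCCC had 0. GluCTC, the next most abundant isoacceptor, had 32832 reads. The levels most like that of GlyGCC over the 6 libraries, on the log2 scale of TMM-scaled counts, were those of HisGTG, SerAGA and GlyTCC, with Pearson coefficients of 0.71, 0.71 and 0.69. These are descriptions over libraries that share their scaling factors.

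**Figure D1:**
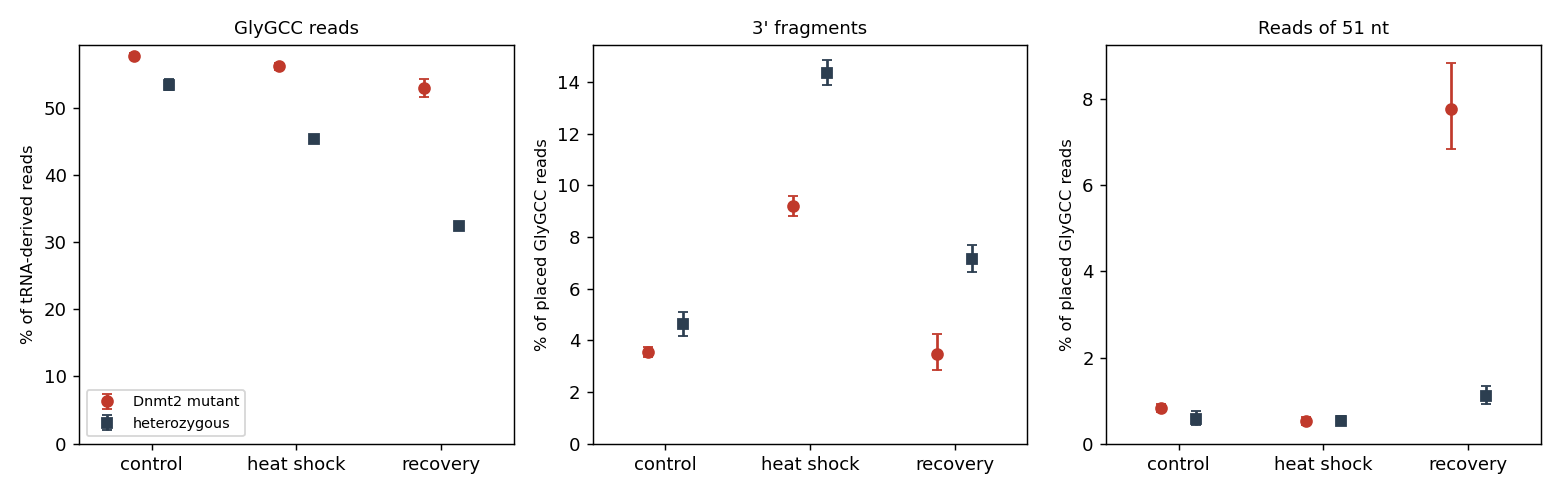
Percent of tRNA-derived reads from GlyGCC (left), percent of placed GlyGCC reads that are 3′ fragments (middle) and that are 51 nt long (right), by condition, with Dnmt2 mutants as circles left of heterozygotes as squares. Each point is 1 library and bars are 95% Wilson intervals. The share of 3′ fragments is highest after heat shock in both genotypes, at 9.20% in mutants and 14.4% in heterozygotes.

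Nearly all GlyGCC reads were 5′ fragments, which begin at the first base of the tRNA. All but 6 reads could be placed on the gene. Their share of placed reads was 95.1%, 89.4% and 95.3% in mutant control, heat shock and recovery flies, and 94.3%, 84.7% and 91.1% in heterozygous flies. The 3′ fragments, which end at the last encoded base (position 73), took 3.55%, 9.20% and 3.49% in mutants and 4.62%, 14.4% and 7.15% in heterozygotes. Mutants thus had 26.8 5′ reads per 3′ read as controls, 9.72 with heat shock and 27.3 at recovery, and heterozygotes had 20.4, 5.89 and 12.7. The remaining reads, between 0.98% and 1.79%, lay inside the tRNA or stopped short of its end. All these shares and ratios are of listed reads. Reads of 36 nt or less were listed only as exact matches, and most reads of base 58, near the 3′ end, differ from the gene. Whether reads with the CCA tail added after transcription were left out is not known. The 3′ fragments may thus be undercounted.

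The share of 3′ fragments rose by 5.65 percentage points with heat shock in mutants and by 9.75 points in heterozygotes, and the Wilson 95% intervals of heat shock and control libraries did not overlap in either genotype. It was lower in mutants than in heterozygotes in 3 of 3 conditions, with a mean difference of -3.30 points (exact paired sign-flip test, 2-sided, p = 0.25, the smallest that 3 pairs allow). With 2 pairs, the heat shock difference cannot go below p = 0.5 in that exact test. All intervals and limits given here cover counting error only, since the reads carry no molecular identifiers.

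A few sequences carried most of the reads. Named by first and last position, the 8 most abundant took 89.2% to 96.6% of the GlyGCC reads of a library. The most abundant was the 5′ fragment 1-33, which is 32 nt long because the tRNA lacks position 17 and ends before the first anticodon base. It had 22250, 10947 and 1612 reads in mutant control, heat shock and recovery libraries, and 4083, 9485 and 3934 reads in heterozygous ones. The next, 1-34, had 7507, 4374 and 467 reads in mutants and 2284, 5181 and 2147 reads in heterozygotes. The other 5′ fragments among the 8 were 1-32, 1-35, 1-36 and 1-37, each with a mean of 2.16% to 5.56% of GlyGCC reads. The last 2 were the 3′ fragments 36-73 and 35-73, both with base 58 read as T.

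The anticodon loop was cut at the same few bases in every library. Between 91.4% and 98.9% of 5′ fragments ended at 31 to 38, and the main end was 33, directly before the anticodon. In mutants 59.5%, 57.8% and 62.1% of the 5′ fragments ended at 33 in control, heat shock and recovery flies, against 52.4%, 53.4% and 46.3% in heterozygotes. The first anticodon base, 34, was the last base of 20.1%, 23.1% and 18.0% of 5′ fragments in mutants and of 29.3%, 29.2% and 25.3% in heterozygotes. Ends at 32 accounted for 5.73%, 8.46% and 7.20% in mutants and 4.96%, 5.81% and 3.53% in heterozygotes.

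Ends at 33 took a larger share in mutants in 3 of 3 conditions, with a mean difference of 9.10 points, and the share ending at 34 was lower in 3 of 3, with a mean difference of -7.53 points. The Wilson intervals of the paired libraries did not overlap at 33 or 34 in any condition, and both exact paired sign-flip tests gave p = 0.25, the smallest possible. The share ending at 36 was also lower in mutants in each condition, at 2.43%, 1.53% and 0.73% in mutants and 4.21%, 3.12% and 8.53% in heterozygotes. Ends at 35 had no common direction: 8.61%, 5.87% and 1.85% in mutants, and 4.96%, 5.54% and 9.66% in heterozygotes. In the mutant recovery library, which stood lowest at 35 and 36, these shares rest on 48 and 19 reads.

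The test on reads per exact sequence asks about levels, not shares. Of 39 exact sequences of all tRNAs tested for genotype, 15.4% passed, and none of the 10 GlyGCC sequences among them did. The nearest were 1-32, at a log2 fold change of 1.51 ± 0.41 (SE) in mutants against heterozygotes (edgeR adjusted p = 0.0737), and 1-33, at 1.16 ± 0.36 (SE, edgeR adjusted p = 0.0871). The fragment 1-34, lower in mutants as a share of 5′ fragments, stood at 0.47 ± 0.32 (SE) in that fit, and 1-36 at -0.79 ± 0.51 (SE), with edgeR adjusted p of 0.342 for both. The fragments 1-35 and 1-37 stood at 0.47 ± 0.58 and 0.28 ± 0.38 (SE). The median of the 39 sequences was 0.20. DESeq2's Wald test called 3 of the 10, namely 1-32, 1-33 and 1-53, with adjusted p of 0.0103, 0.0305 and 0.0110. How many of all 39 sequences DESeq2 called was not computed, so these 3 cannot be set against a background. Of the 23 isoacceptors it called 8 for genotype, against 3 by edgeR.

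**Figure D2:**
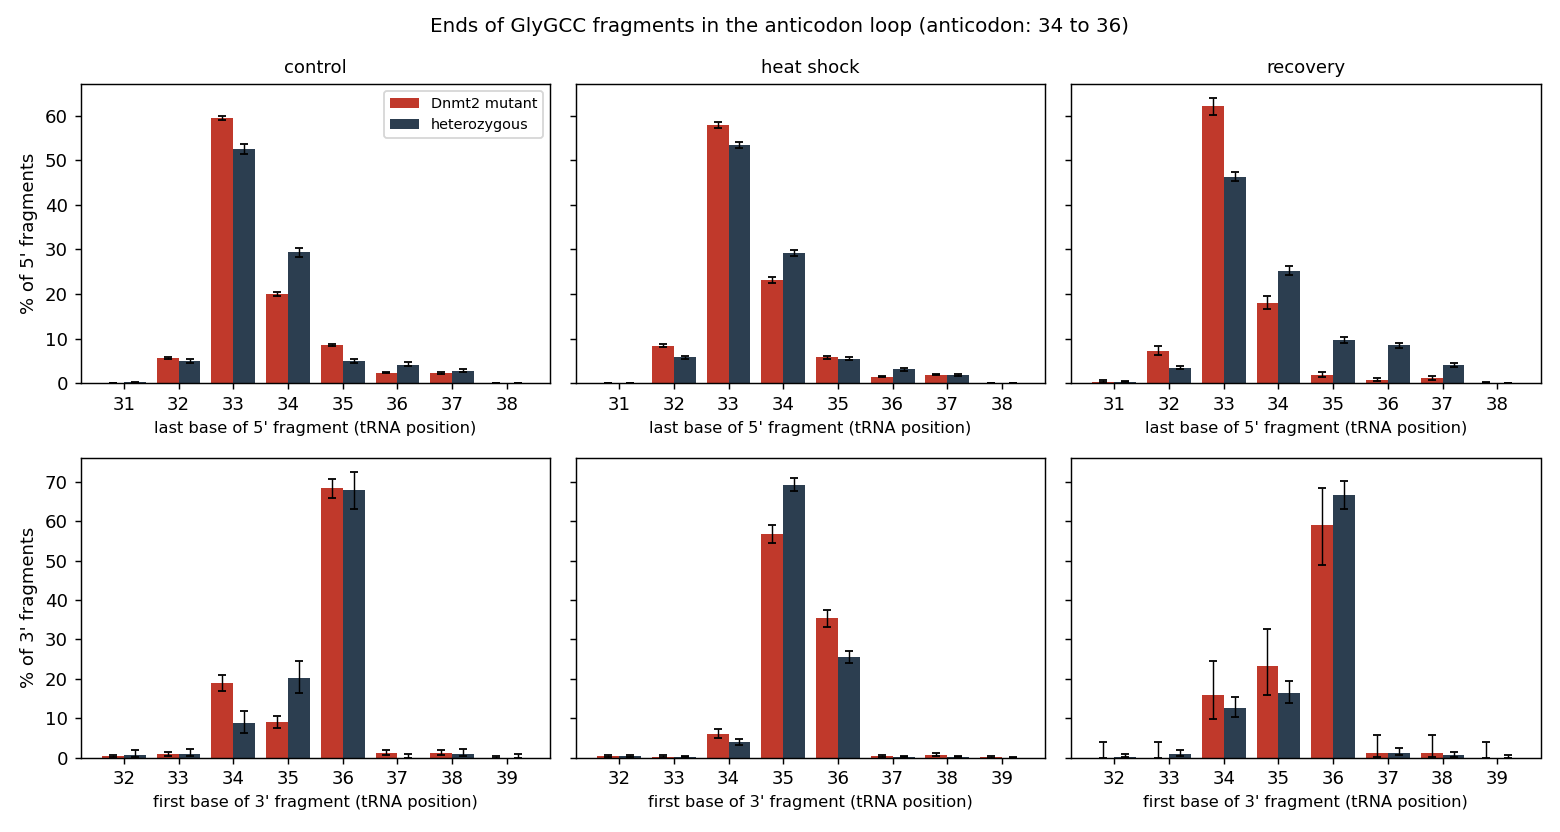
Last base of 5′ fragments (top, percent of 5′ fragments) and first base of 3′ fragments (bottom, percent of 3′ fragments) in the anticodon loop, in control, heat shock and recovery flies, with Dnmt2 mutants in red left of heterozygotes in dark blue. Each bar is 1 library with its 95% Wilson interval. Among 3′ fragments, a start at 35 takes 56.7% in mutants and 69.3% in heterozygotes after heat shock, against 8.95% and 20.2% in control flies.

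The 5′ ends stopped sharply before position 38, the base that Dnmt2 methylates. Over all libraries, 2166 of the 5′ fragments ended at 37 and 14 at 38. The share ending at 37 was 2.33%, 1.98% and 1.12% in mutants and 2.77%, 1.83% and 4.12% in heterozygotes, and at 38 it was at most 0.04% in any library, mutant or heterozygous. The 5′ fragments 1-37 and 1-38 are 36 and 37 nt long, and the lists change at that length, because reads with a base difference appear from 37 nt on. Reads of the other tRNAs numbered 2222 at 36 nt and 1231 at 37 nt. At 37 nt or longer, base 38 of GlyGCC was read as another base in 1 of 2142, 0 of 2298 and 0 of 338 reads in mutant control, heat shock and recovery libraries. In heterozygous libraries the counts were 0 of 505, 0 of 3301 and 2 of 926. Counts of 0 allow a share of up to 0.131% in mutant heat shock, 0.888% in mutant recovery, 0.594% in heterozygous control and 0.0909% in heterozygous heat shock flies. These are counts of changed bases, and whether base 38 was methylated in these flies was not tested.

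The clearest change with heat shock was in where the 3′ fragments began. In control flies most began at 36, the last anticodon base: 68.4% in mutants and 68.0% in heterozygotes. After heat shock most began at 35, the middle anticodon base, at 56.7% in mutants and 69.3% in heterozygotes, against 8.95% in mutant and 20.2% in heterozygous controls. In recovery flies the start at 35 took 23.2% in mutants (22 of 95 reads) and 16.3% in heterozygotes. The start at 35 thus gained 47.8 points with heat shock in mutants and 49.1 points in heterozygotes, in 2 of 2 pairs, and the intervals of heat shock and control libraries were far apart. The exact paired sign-flip p was 0.5, the smallest that 2 pairs allow. The start at 34 took 18.8%, 6.06% and 15.8% in mutants and 8.66%, 3.95% and 12.6% in heterozygotes.

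Set against all tRNA-derived reads, the start at 35 was several times as frequent after heat shock, and the start at 36 was not. The start at 35 took 0.18%, 2.93% and 0.43% of the tRNA-derived reads in mutant control, heat shock and recovery flies, and 0.50%, 4.51% and 0.38% in heterozygous flies. The start at 36 took 1.40%, 1.82% and 1.09% in mutants and 1.68%, 1.65% and 1.54% in heterozygotes. Both heat shock libraries lay above all 4 others for the start at 35, and the libraries overlapped for the start at 36.

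One GlyGCC sequence passed the heat shock test. This 3′ fragment, 35-73 with A58T, is 38 nt long and had 110, 982 and 20 reads in mutant control, heat shock and recovery libraries, and 66, 1860 and 99 in heterozygous ones. Its reads were highest after heat shock in both genotypes, while library totals moved in opposite directions, with fewer reads in the mutant heat shock than the mutant control library. Of 39 exact sequences, 10.3% passed for heat shock, and it was 1 of those 4, at a log2 fold change of 3.37 ± 0.53 (SE, edgeR adjusted p = 0.0151). By pair, the log2 ratio of heat shock to control was 3.49 (95% counting interval 3.24 to 3.82) in mutants and 3.22 (2.88 to 3.61) in heterozygotes. In the pair of recovery to heat shock the log2 ratio was -2.53 (-3.27 to -1.92) in mutants and -3.73 (-4.07 to -3.47) in heterozygotes.

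Leaving out each library in turn gave log2 fold changes of 2.97 to 3.92, and 2 of these 6 fits ended the call. Without the mutant control library the log2 fold change was 2.97 with an edgeR adjusted p of 0.272, and without the mutant heat shock library it was 3.65 with an edgeR adjusted p of 0.353. With scaling factors computed without GlyGCC it was 3.39 with an edgeR adjusted p of 0.0515. The 9 other GlyGCC sequences tested for heat shock had log2 fold changes of -1.10 to -0.07, none past the test. The fragment 36-73 with A58T, which starts only 1 base later, had 835, 601 and 50 reads in mutants and 228, 672 and 397 in heterozygotes, and its log2 fold change with heat shock was -0.07 ± 0.37 (SE, edgeR adjusted p = 0.865).

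Whether the 5′ fragment that ends at the same place was higher after heat shock depended on the measure in mutants. The matching 5′ fragment of a cut between 34 and 35 is 1-34, whose log2 fold change with heat shock was -0.40 ± 0.39 (SE, edgeR adjusted p = 0.475). Given its SE, the fit does not show that a rise was absent. As a share of 5′ fragments, 1-34 took 23.1% after heat shock against 20.1% in control mutants, and 29.2% against 29.3% in heterozygotes. Its share of all tRNA-derived reads was also higher after heat shock in mutants, and lower in heterozygotes. For each 3′ read starting at 35 there were 60.1, 3.96 and 21.2 reads of 1-34 in mutant control, heat shock and recovery flies, and 29.7, 2.48 and 19.7 in heterozygous flies. For the cut between 35 and 36 the same ratio was 3.37, 1.61 and 0.86 in mutants and 1.49, 1.28 and 1.84 in heterozygotes. For the main 5′ end, at 33, it was far from 1 in every library, with 84.6, 92.8 and 107 reads of 1-33 per 3′ read from 34 in mutants and 124, 79.7 and 46.8 in heterozygotes.

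In recovery against control flies, 0.00% of the 39 exact sequences passed, 0 of them from GlyGCC, and 2 of the 39 had an unadjusted p under 0.05 by edgeR. The GlyGCC fragment with the widest fold there was 1-53, at 1.96 ± 0.95 (SE, edgeR adjusted p = 0.552). It had 291, 97 and 195 reads in mutants and 34, 100 and 95 in heterozygotes.

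Fragment 1-53 is 51 nt long, the longest length listed for any tRNA. Reads of 51 nt were 0.82%, 0.52% and 7.78% of GlyGCC reads in mutant control, heat shock and recovery flies, and 0.57%, 0.53% and 1.11% in heterozygous flies. The mutant recovery library stood apart from the 5 others. It was also the library with the fewest reads, and the part of its size in this share was not tested. Between 40 and 49 nt GlyGCC reads were rare, at 0.20% to 0.70% of a library's reads. Whether molecules longer than 51 nt lie behind the longest reads cannot be read from these lists.

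Base 58 of the T loop was read as another base in most reads that covered it. Position 58 carries a methylated adenosine (m1A) in many eukaryotic tRNAs, which reverse transcriptases are known to misread. A58T was seen in 6931 reads, A58G in 563 and A58C in 14, with the gene's base first. Together they made up 90.5%, 93.0% and 91.3% of the reads covering 58 in mutant control, heat shock and recovery libraries, and 91.0%, 94.0% and 92.2% in heterozygous ones. Because reads of 36 nt or less were listed only where they matched exactly, short reads with a changed base 58 could not appear. In reads of 37 nt or more the shares were 96.7%, 95.6% and 97.9% in mutants and 93.6%, 95.1% and 96.2% in heterozygotes.

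**Figure D3:**
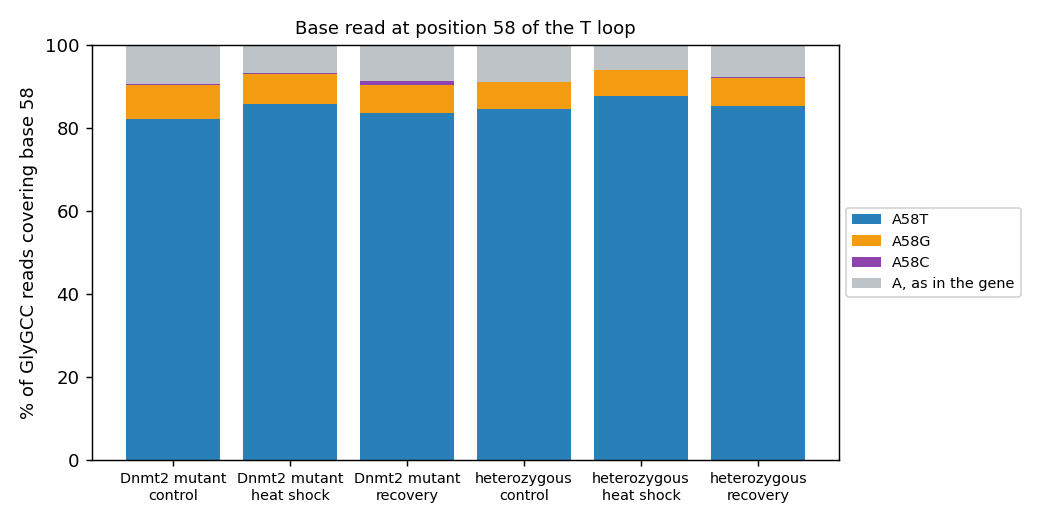
Base read at position 58 in the GlyGCC reads that cover it, as percent of those reads, in 6 libraries with the Dnmt2 mutants left of the heterozygotes. A58T makes up 82.1% to 87.6% in every library, and A58G 6.28% to 8.10%.

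The mix of bases at 58 differed little between libraries. A58T took 82.1%, 85.6% and 83.5% of all covering reads in mutants and 84.6%, 87.6% and 85.2% in heterozygotes. A58G took 8.10%, 7.19% and 6.80% in mutants and 6.47%, 6.28% and 6.70% in heterozygotes, with Wilson intervals that overlapped in each condition. The sign of the genotype difference at base 58 depended on which reads were used. Over all covering reads the changed share was lower in mutants, with a mean difference of -0.82 points, and in reads of 37 nt or more it was higher, at 1.78 points (exact paired sign-flip p = 0.25 for each, the smallest 3 pairs allow). Whether the base was methylated in these flies was not tested.

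The same listing rule bears on the start positions of 3′ fragments. A fragment from 37 or later to 73 is 36 nt or shorter, so it could be listed only with base 58 read as A. Among 3′ fragments with an unchanged base 58, which are listed at every length, the start at 35 took 5 of 81, 46 of 104 and 1 of 4 reads in mutant control, heat shock and recovery flies. In heterozygotes it took 6 of 27, 102 of 157 and 5 of 38. The heat shock libraries again stood above the controls, at 44.2% against 6.17% in mutants and 65.0% against 22.2% in heterozygotes. The start at 36 took 127 of 411 of these reads (30.9%) over all libraries. With heat shock its share moved by -11.1 points in mutants and -19.0 in heterozygotes. Over all 3′ fragments it moved by -33.1 and -42.6 points. Within these reads a start at 37 or 38 was found in 16 and 16 of the 81 reads of mutant controls, and in 6 and 14 of the 104 of mutant heat shock flies. Starts at 37 and 38 are therefore undercounted among all 3′ fragments, where they took at most 1.20% each.

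Few reads varied elsewhere. Base 9, which carries a methyl group in many tRNAs, was changed in 42 reads, with G9A in 21, G9T in 13 and G9C in 8. In reads of 37 nt or more it was changed in 17 of 556, 9 of 249 and 5 of 238 reads in mutants, and in 5 of 107, 4 of 238 and 2 of 219 in heterozygotes. These shares, 3.06%, 3.61% and 2.10% in mutants and 4.67%, 1.68% and 0.91% in heterozygotes, have intervals that overlap in each condition. The other 55 variants took 100 reads in all and at most 9 each.

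The far 3′ end of the tRNA was not always complete. Of the reads that began in the 3′ part, 15.1%, 1.57% and 7.77% ended at 71, 2 bases before the last encoded base, in mutant control, heat shock and recovery flies. In heterozygous flies these shares were 4.75%, 1.36% and 7.06%. The share was lower in heat shock than in control flies in both genotypes, but the heat shock libraries also held far more reads from 35, few of which end at 71. Among reads that did not start at 35, a choice made after seeing the data, ends at 71 took 3.60% after heat shock against 15.96% in control mutants, and 4.12% against 5.31% in heterozygotes, where the intervals overlapped. As a share of all tRNA-derived reads they took 0.09% after heat shock against 0.37% in control mutants, and 0.09% against 0.12% in heterozygotes. Among reads that began at 34, 35 or 36 it was highest for 34, at 32.7%, 7.09% and 16.7% in mutants and 13.2%, 10.5% and 26.1% in heterozygotes, and for 36 it was at most 1.75%. The listing rule bears on this order and on the shares by condition. A read from 35 or 36 to 71 is 36 nt or shorter, so it could be listed only with base 58 read as A. A read from 34 to 71 is 37 nt long and could be listed with a changed base. Ends at 71 are therefore undercounted for starts at 35 and 36. Among reads from 36 the share ending at 71 was 0.75 points higher with heat shock in mutants and 0.52 points higher in heterozygotes. Ends at 72 took 5.49% in mutant heat shock flies, and at most 1.26% in the other libraries. The listing rule bears on these shares too. A read from 36 to 72 is 36 nt long and could be listed only with base 58 read as A. A read from 35 to 72 is 37 nt long and could be listed with a changed base, and the heat shock libraries held more reads from 35. Reads were placed only within the 71 nt of the rebuilt tRNA, so no placed read could run past 73. The placed reads therefore cannot show the CCA tail that is added to tRNAs after transcription, and the 6 reads not placed were not searched for it. Whether reads with this tail were trimmed or left out is not given in the sources used here.

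**Figure D4:**
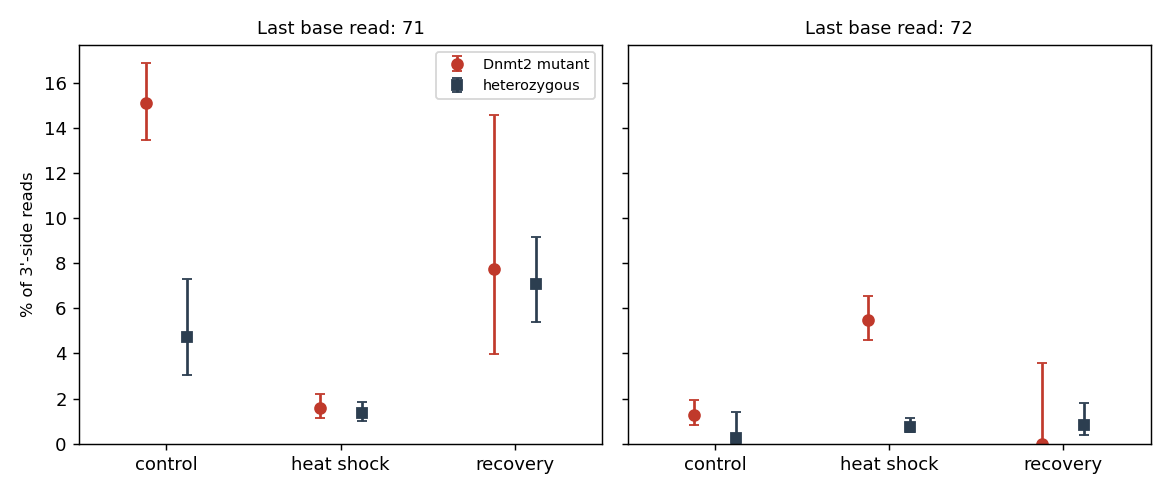
Percent of GlyGCC reads from the 3′ part of the tRNA that end at 71 (left) or 72 (right), by condition, with Dnmt2 mutants as circles left of heterozygotes as squares. Each point is 1 library and bars are 95% Wilson intervals. Ends at 71 range from 15.1% in mutant controls to 1.36% in heterozygous heat shock flies. Reads that start at 35 or later and end at 71 could be listed only with base 58 read as A.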

How the data were processed

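The authors deposited, per library, counts of reads for each sequence and tRNA gene, whole numbers and not normalized, per the file headers. Libraries came from 200 µg of RNA each, depleted of 2S rRNA, per the labels' protocols. The submitters' processing notes name Bowtie and dm3. No source used here states versions, mismatch settings or trimming. RefSeq names of another build were used, without coordinates, and sequences are not reported here.

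Each read was counted once, since reads are listed at every gene they match and in shortened form at genes that differ near their end. Reads were placed on the rebuilt tRNA with up to 3 differences. Isoacceptors and exact sequences with at least 10 counts, scaled to the smallest library, in 3 libraries went into edgeR 4.0.16 under R 4.3.3 (quasi-likelihood, TMM, genotype and condition as terms, 2 residual degrees of freedom, Benjamini-Hochberg, threshold 0.05), after the same steps were tested on simulated data. Because no group was replicated, the spread includes any difference in response between genotypes. DESeq2 1.42.0 was an alternative. Shares have Wilson 95% intervals, a count of 0 the limit of 3 counts, and differences an exact paired sign-flip test (Python 3.11.15, scipy 1.17.1). The fragments named are the 8 most abundant, those that passed, and variants with at least 20 reads. Fragment 1-53 and the variants C50T, A58C, G9T and G9C were named after their values were seen. The members and lists were chosen with earlier results of these data known.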

Additional observations from a re-analysis of the deposited data

Results flagged for a closer look

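Between recovery and control flies, the ends of GlyGCC 5′ fragments moved in opposite directions in the 2 genotypes at 5 positions, with intervals of the recovery and control libraries that did not overlap in either genotype. At 32 the share moved by 1.47 points in mutants and -1.43 in heterozygotes, a gap of 2.90 points. At 33 it moved by 2.62 points in mutants and -6.17 in heterozygotes, a gap of 8.79. At 35 it moved by -6.77 points in mutants and 4.70 in heterozygotes, a gap of -11.5. At 36 it moved by -1.70 points in mutants and 4.32 in heterozygotes, a gap of -6.01. At 37 it moved by -1.21 points in mutants and 1.34 in heterozygotes, a gap of -2.55. At 34 the share moved the same way in both, by -2.08 points in mutants and -4.08 in heterozygotes. The share of 5′ fragments of 40 nt or more also moved the same way, by 7.37 points in mutants and 1.19 in heterozygotes. With 1 library in each group the difference between genotypes was not tested. These 5 were picked from 28 comparisons, over 14 shares, by a rule that asked for opposite moves and intervals apart in both genotypes. The intervals that do not overlap are thus part of the choice and not a separate result. The shares at neighbouring positions depend on each other. The mutant recovery library has the fewest reads, 2596 of them 5′ fragments.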

How the results depend on the processing

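The GlyGCC level passed no test under any of the 7 alternatives that kept all libraries. Its heat shock value changed sign under some, with 0.35 under RLE factors, 0.35 by DESeq2 and 0.014 under TMM factors computed without GlyGCC. Isoacceptors called for genotype numbered 3, against 7 under RLE factors, 8 without GlyGCC in the factors, 8 by DESeq2, 5 with sequences counted as listed and 1 without reads of 51 nt. For heat shock they numbered 6, against 3 under RLE factors and 3 without scaling. DESeq2 called 3 GlyGCC fragments for genotype, with its share over all sequences not computed, and factors computed without GlyGCC left 0 for heat shock. The A58 difference between genotypes turned to 1.78 points in reads of 37 nt or more, and the G9 difference to -0.98 points in reads of 51 nt alone. The choice of reads of 37 nt or more, and of 3′ fragments with an unchanged base 58, was made after seeing the data.

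Leaving out each library in turn gave GlyGCC log2 fold changes of 0.49 to 0.92 for genotype, -0.32 to 0.21 for heat shock and -1.06 to -0.50 for recovery. Isoacceptors called ranged over 1 to 7, 0 to 8 and 0 to 1 in that order of comparisons, and GlyGCC fragments called over 0 to 1 for genotype and 0 to 1 for heat shock. The single genotype call was 1-53, without the heterozygous heat shock library. The recovery difference ranged over -0.063 to 2.53 points for the share of 3′ fragments and over -3.87 to 14.2 points for starts at 35. The heat shock difference in 5′ ends at 34 ranged over -0.19 to 3.04 points. The cause of these changes was not tested. Other results kept their direction and side of the threshold, apart from the GlyGCC level for genotype and recovery and the fragment 35-73 with A58T, whose values without single libraries are given in the report. No paired analysis was possible by replicate number, because each group has 1 library; the pairs by condition and by genotype are already used in the fits and the exact tests. The 5154 reads of the mutant recovery library limit its shares, which rest on 95 3′ fragments.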
